A study of Mus musculus with 4 samples.

Results

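Cxcl1, Cxcl2, Ccl3 and Ccl4, which encode 4 inflammatory chemokines, were examined in single colonic monocytes and macrophages of chow-fed and high-fat-diet-fed mice. These 4 of the 11820 genes in the matrix were singled out because earlier results of these same cells had shown them to differ between diets and between macrophage subsets. Their levels by diet and along Ly6c2, MHC II and C1q are therefore given below as a description, with no test. Male C57/Bl6N mice, aged 6 to 7 weeks at the start, were fed for 1 week either chow (replicates 9 and 11) or a coconut-based high-fat diet with 60% fat (HFD, replicates 1 and 3). Live CD45+Lin-CD11b+CD24- cells of the colonic lamina propria that carried Ly6C or CD64 were sorted from each mouse, loaded into a well of its own, and captured in droplets, with a unique molecular identifier (UMI) added to each transcript near the 3′ end. All mice were wild-type, and each mouse gave a single library, so that mouse, sort and capture cannot be told apart. The comparison asks how a week of HFD alters the transcripts of colonic macrophages, here for the chemokines that recruit further leukocytes.

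CXCL1 and CXCL2 act on the receptor CXCR2 and draw neutrophils into tissue, whereas CCL3, which acts on CCR1, and CCL4 draw monocytes and T cells. The genes of both pairs are switched on within a short time by NF-κB downstream of Toll-like receptors, TNF and IL-1. Their short-lived transcripts carry AU-rich elements, on which decay factors such as the product of Zfp36 act, and resident gut macrophages are known to renew themselves from Ly6C-high monocytes that gain MHC II and later lose Ly6C.

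On GRCm38, Cxcl1 (ENSMUSG00000029380) lies on the plus strand at chr5:90891241-90893115 and Cxcl2 (ENSMUSG00000058427) on the same strand at chr5:90903871-90905938. Ccl3 (ENSMUSG00000000982) lies on the minus strand at chr11:83647844-83649355 and Ccl4 (ENSMUSG00000018930) on the plus strand at chr11:83662584-83664683. Each pair is thus a pair of neighbours. The upstream stretch of 3 of the genes is shown because NF-κB is the regulator these genes are best known for (RefSeq, GRCm38.p6, 5′ to 3′ on the strand of the gene, matches to the NF-κB-binding kappa B consensus in capitals). The entries span chr5:90890995-90891240 for Cxcl1, chr5:90903649-90903870 for Cxcl2 and chr11:83649379-83649628, minus strand, for Ccl3. The entries of Cxcl1 and Cxcl2 adjoin the starts given above, whereas that of Ccl3 ends short of it, and the bases between were not searched.
Cxcl1: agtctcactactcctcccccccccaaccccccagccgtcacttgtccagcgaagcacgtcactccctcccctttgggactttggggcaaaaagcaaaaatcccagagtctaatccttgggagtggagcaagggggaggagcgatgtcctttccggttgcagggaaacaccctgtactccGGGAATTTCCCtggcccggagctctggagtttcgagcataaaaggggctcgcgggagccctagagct
Cxcl2: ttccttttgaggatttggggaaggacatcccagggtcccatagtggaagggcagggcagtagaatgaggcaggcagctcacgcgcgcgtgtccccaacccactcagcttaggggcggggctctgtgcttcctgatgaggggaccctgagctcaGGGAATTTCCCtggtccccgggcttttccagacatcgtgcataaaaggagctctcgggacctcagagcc
Ccl3: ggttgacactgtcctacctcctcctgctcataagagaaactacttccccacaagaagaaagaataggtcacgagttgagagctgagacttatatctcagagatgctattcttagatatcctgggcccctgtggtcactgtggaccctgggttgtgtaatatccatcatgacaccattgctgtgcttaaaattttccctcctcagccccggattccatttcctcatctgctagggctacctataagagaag

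The window of Cxcl1 held a match to the kappa B consensus on each strand, both within the same 11 capital letters 57 to 67 bases upstream, and the window of Cxcl2 held the same 11 letters 59 to 69 bases upstream. The consensus was searched on both strands and occurred in 1281 of 32851 promoter windows of up to 250 upstream bases (3.9%), and the exact match of Cxcl1 in 28 of them (0.0852%). The window of Ccl3, which does not reach the gene start given above, held none, and neither the AP-1 motif TGANTCA (6.75% of windows) nor TATAAA (12.4% of windows) was found in any of the 3. A match, or its lack in so short a window, does not show which factors act on a gene.

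Monocyte and macrophage labels were set against markers over all cells. Cd68 (a lysosomal protein) stood at 466 to 679 CPM (counts per 1000000, the UMIs of a gene scaled to that number of UMIs in the mouse) and Csf1r, the receptor for the macrophage growth factor, at 552 to 880 CPM. Summed markers of T and NK cells stayed at 3.39 to 28.3 CPM and those of epithelial cells at 2.61 to 113 CPM, whereas B and plasma cell markers, nearly all Igha and Jchain, reached 1315 to 4634 CPM with Cd79a at 3.27 CPM or less. Of 9 neutrophil markers 3 were analysed here, with a sum of 32.1 to 68.2 CPM. Summed macrophage markers were at 19966 and 21941 CPM on chow, against 9096 and 8871 CPM on HFD. Monocyte markers were at 1488 and 1272 against 11387 and 10164 CPM. C1qa, C1qb and C1qc were the largest macrophage markers, each at 5380 to 7044 CPM on chow and 2227 to 2642 CPM on HFD. The mice gave 904 to 2002 cells each, with a median of 3266 to 3926 UMIs per cell. Scrublet marked 38 of 5420 cells as doublets (0.701%), so few that doublets cannot be taken as removed, and 23 barcodes occurred in more than 1 mouse.

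Each of the 4 chemokines was lower in both HFD mice than in both chow mice. By UMIs pooled over all 4 mice, to which chow mice gave most of the chemokine counts, Cxcl2 ranked 14th of all genes, Ccl4 29th, Ccl3 54th and Cxcl1 129th. Together the 4 took up 1.92% and 1.78% of all UMIs in chow replicates 9 and 11, but 0.622% and 0.467% in HFD replicates 1 and 3.

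Cxcl1 stood at 1593 and 1445 CPM in chow replicates 9 and 11 and at 221 and 182 CPM in HFD replicates 1 and 3. Cxcl2 stood at 8916 and 8019 CPM on chow, against 3324 and 2253 CPM on HFD. For neither gene did the diets overlap, and the gap was wider for Cxcl1. On chow Cxcl1 averaged 1519 ± 105 CPM (SD, n = 2) and on HFD 202 ± 27.8 CPM, a log2 fold change of -3.13 (SE 0.15). Cxcl2 averaged 8468 ± 634 CPM in chow mice and 2789 ± 757 CPM in HFD mice, a log2 fold change of -1.82 (SE 0.20).

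The CC pair moved in the same direction. Ccl3 stood at 3261 and 3372 CPM on chow, against 940 and 696 CPM on HFD. Ccl4 stood at 5405 and 4971 CPM on chow, against 1737 and 1537 CPM on HFD. Again no HFD mouse reached a chow mouse. The log2 fold changes were -2.24 (SE 0.17) for Ccl3 and -1.88 (SE 0.13) for Ccl4. Among all 4948 genes tested, 21.4% likewise kept both HFD mice under both chow mice, which is the share against which the 4 of 4 chemokines may be set. Because the genes were chosen on this contrast, nothing is read from their count. The order Cxcl2, Ccl4, Ccl3, Cxcl1 was the same in each mouse, and no neighbours in that order overlapped within a diet. These 3′ counts take one tag per molecule and need no correction for length.

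**Figure D1:**
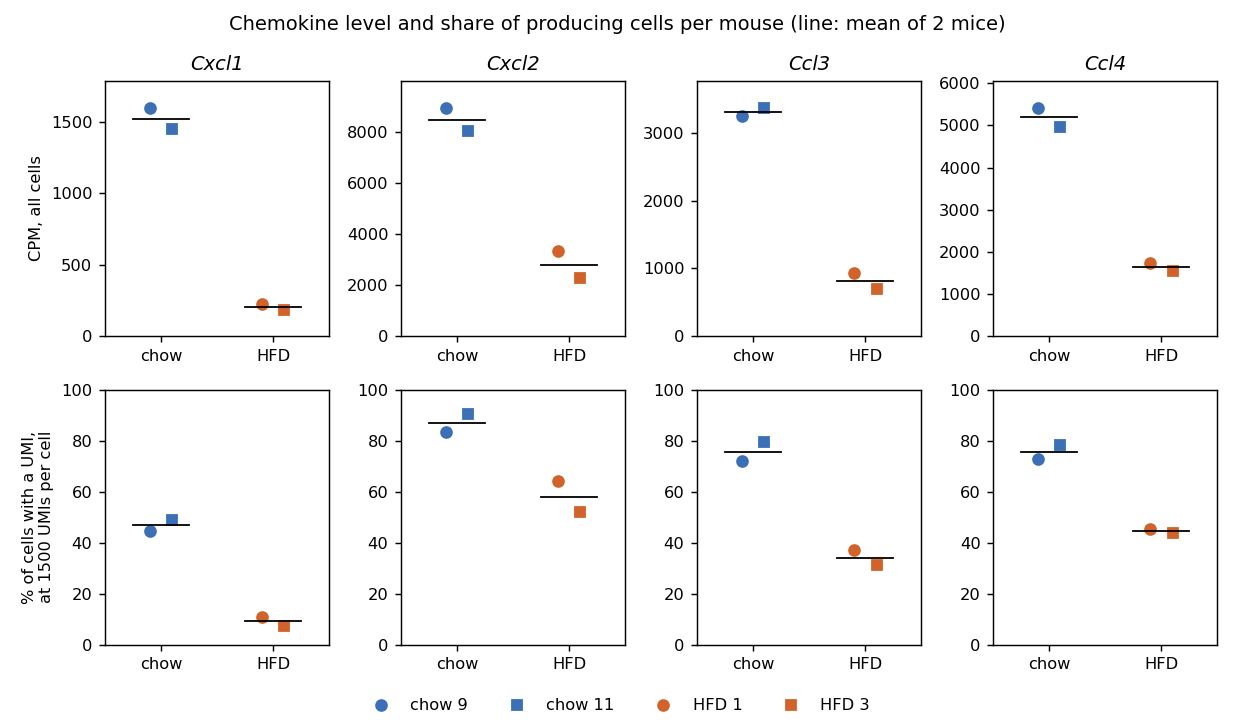
The upper row plots CPM over all cells and the lower row the percentage of cells with at least 1 UMI after thinning every cell to 1500 UMIs, with 1 point per mouse and a line at the mean of the 2 mice of a diet. For each of the 4 chemokines both HFD mice lie below both chow mice, from 1593 and 1445 CPM down to 221 and 182 CPM for Cxcl1.

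A smaller share of cells held each chemokine on HFD. Since deeper cells show more genes, each cell was thinned to 1500 UMIs and shallower cells were left out (60, 200, 124 and 201 cells in chow 9, chow 11, HFD 1 and HFD 3). Cxcl1 then had a UMI in 44.7% and 48.8% of chow cells and in 10.9% and 7.39% of HFD cells, against 56.2%, 60.9%, 15.8% and 10.9% without thinning. The share for Cxcl2 was 83.3% and 90.4% on chow and 64.0% and 52.1% on HFD. At 1500 UMIs most cells of each mouse thus carried Cxcl2, whereas only a small minority of HFD cells carried Cxcl1. Thinned to 1000 UMIs, the share for Cxcl2 was 44.9% in HFD replicate 3. Ccl3 had a UMI in 71.8% and 79.3% of thinned chow cells and in 37.1% and 31.1% of HFD cells. For Ccl4 the shares were 72.9% and 78.5% on chow and 45.3% and 43.8% on HFD. Unthinned, the shares of Cxcl2, Ccl3 and Ccl4 were at least 82.7% on chow and 42.5% to 76.8% on HFD. No cell type that should lack these genes was in the sort, and empty droplets were not analysed here, so the share that free RNA could add was not measured.

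The number of chemokines per cell differed too. A cell held UMIs of all 4 genes in 44.5% and 52.0% of chow cells, and in 8.49% and 5.56% of HFD cells. Cells without any of the 4 made up 1.66% and 0.350% on chow and 7.66% and 12.3% on HFD. After thinning these shares were 3.10%, 1.04%, 16.4% and 22.2%. Most HFD cells therefore still carried at least 1 of the 4 transcripts.

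**Figure D2:**
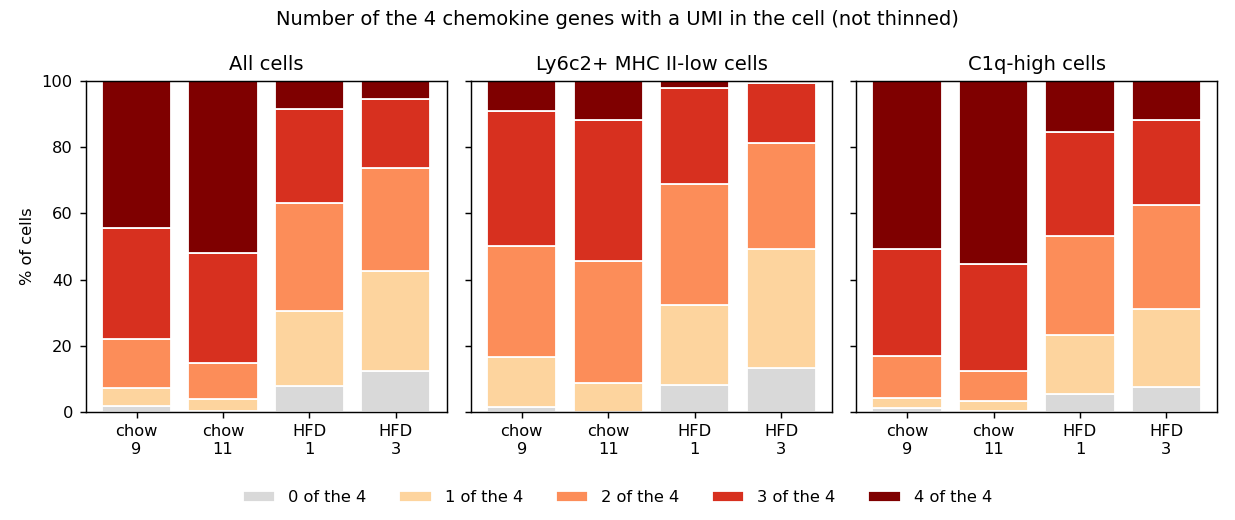
Stacked bars give the percentage of cells of each mouse with UMIs of 0, 1, 2, 3 or all 4 of the chemokine genes, over all cells and in 2 ranges of cells described in the text. The darkest block, cells with all 4, takes 44.5% and 52.0% in the chow mice and 8.49% and 5.56% in the HFD mice over all cells.

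To see the chemokines along the path from monocyte to macrophage, cells were divided by 3 measures named in the selection, namely the summed UMIs of C1qa, C1qb and C1qc, those of 4 MHC II genes (H2-Aa, H2-Ab1, H2-Eb1 and Cd74) and the presence of Ly6c2. Both sums were expressed as log2 of UMIs per 10000 plus 1 and divided by Otsu's threshold, at 4.62 for C1q and 7.66 for MHC II. These are ranges of a continuous level and not cell types, and 174 and 264 cells lay within 0.5 of the respective threshold. Macrophage markers include the C1q genes, and monocyte markers include Ly6c2. Their sums are therefore no independent check of the ranges. The C1q-high range held 764 and 1849 chow cells (84.5% and 92.4%) and 458 and 653 HFD cells (47.4% and 42.2%). Ly6c2+ MHC II-low cells (C1q-low), the monocyte end, numbered 66 and 68 on chow (7.30% and 3.40%) and 280 and 325 on HFD (29% and 21%). Ly6c2- MHC II-high cells (C1q-low) numbered 26, 28, 98 and 175. The Ly6c2+ MHC II-high range had only 3 and 19 chow cells, and its diets were not compared.

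Of the 3 ranges compared, C1q-high cells held the highest level of each chemokine in each mouse, with the exception of Ccl3 in HFD replicate 3. In this range Cxcl1 stood at 1729 and 1515 CPM on chow, against 417 and 337 CPM on HFD, and in Ly6c2+ MHC II-low cells at 158 and 115 CPM on chow, against 34.3 and 12.3 CPM on HFD. The C1q-high level was 11 and 13.2 times the monocyte-end level on chow and 12.2 and 27.4 times on HFD. This was the steepest step of the 4 genes in every mouse, and at the monocyte end only 19 of 280 cells of HFD replicate 1 had a Cxcl1 UMI (6.79%, exact 95% binomial interval 4.13% to 10.4%, counting error only). For Cxcl2 the same ratio was 3.53 and 4.0 on chow and 1.66 and 3.10 on HFD. Ccl3 had ratios of 2.01 and 2.03 on chow and 1.74 and 0.932 on HFD, the smallest of the 4 genes in every mouse but HFD replicate 1, where Cxcl2 had the smallest. Ccl4 had ratios of 3.60 and 6.62 on chow and 2.36 and 1.28 on HFD.

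Within C1q-high cells the 4 of 4 chemokines remained lower on HFD without overlap, where 23.2% of 5065 genes had both HFD mice below both chow mice. Cxcl2 stood at 9573 and 8321 CPM on chow, against 4431 and 3383 CPM on HFD. Ccl3 stood at 3484 and 3474 CPM on chow, against 1286 and 806 CPM on HFD. Ccl4 stood at 5858 and 5192 CPM on chow, against 2501 and 1817 CPM on HFD. All 4 gaps were narrower than over all cells, with log2 fold changes of -2.25 (SE 0.16) for Cxcl1, -1.34 (SE 0.17) for Cxcl2, -1.88 (SE 0.22) for Ccl3 and -1.50 (SE 0.18) for Ccl4. These values depended on where the range was divided, and with median thresholds in place of Otsu's they were -1.50, -0.89, -1.15 and -0.81. A C1q-high cell with any UMI of Cxcl2 held a median of 29 and 22 of them on chow but 11 and 7 on HFD. The medians were 10 and 9 against 3 and 2 for Ccl3, 13 and 10 against 4 and 3 for Ccl4, and 6 and 4 against 3 and 3 for Cxcl1. Both the share of cells with a UMI and the UMIs per such cell were thus lower on HFD for all 4 genes in this range. How much free RNA added to either was not measured. Marker sums moved with diet within the range as well. Monocyte markers were at 337 and 520 CPM on chow, against 2816 and 3748 CPM on HFD, macrophage markers at 22064 and 22979 against 16835 and 15763 CPM, dendritic cell markers at 26.0 and 25.9 against 169 and 139 CPM, and B and plasma cell markers at 2686 and 3133 against 165 and 126 CPM. Over all cells the dendritic cell sum of HFD mice was mostly Ccr7, at 120 and 107 CPM of 151 and 129 CPM. On chow Ccr7 stood at 12.79 and 11.95 CPM. Zbtb46 and Xcr1 overlapped between diets, and Flt3 and Clec9a were higher on HFD but at 14.4 CPM or less. Single dendritic cell markers were not examined within the range. The part of these marker sums in the chemokine levels was not tested.

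At the monocyte end the pairs parted differently. In Ly6c2+ MHC II-low cells Cxcl2 stood at 2712 and 2082 CPM on chow, against 2672 and 1090 CPM on HFD, and Ccl4 at 1626 and 784 CPM on chow, against 1061 and 1418 CPM on HFD. The diets overlapped for both. Ccl3 stood at 1736 and 1711 CPM on chow, against 738 and 865 CPM on HFD, and did not overlap, nor did Cxcl1. Here 15.3% of 4570 genes had both HFD mice below both chow mice, as had 2 of the 4 chemokines. The log2 fold changes were -2.63 (SE 0.44) for Cxcl1, -0.46 (SE 0.29) for Cxcl2, -1.22 (SE 0.18) for Ccl3 and -0.07 (SE 0.26) for Ccl4. Without chow replicate 9 the value for Ccl4 was 0.54, and without HFD replicate 1 that for Cxcl2 was -1.25. That for Cxcl1, which rests on 38 and 12 UMIs in the HFD mice, was -3.55 without HFD replicate 1 and -2.10 without HFD replicate 3. By CPM one member of each pair was apart between diets in these cells, Cxcl1 and Ccl3, and its partner was not. By the share of thinned cells with a UMI both partners were lower on HFD without overlap too, Cxcl2 at 60.1% and 70.6% on chow and 56.2% and 41.2% on HFD, and Ccl4 at 49.7% and 53.7% on chow and 41.6% and 46.3% on HFD. B and plasma cell markers took up 40638 and 26896 CPM of this range on chow, against 8721 and 6973 CPM on HFD. Monocyte markers summed to 14448 and 19976 CPM on chow, less than those of B and plasma cells, and to 26770 and 25360 CPM on HFD. Epithelial markers reached 353 CPM in HFD replicate 3, against 2.71 to 4.78 CPM in the other mice. The part of these markers in the chemokine values was not tested.

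Ly6c2- MHC II-high cells, few on chow, showed another pattern. Cxcl1 stood at 777 and 258 CPM on chow, against 44.9 and 29.2 CPM on HFD, and Cxcl2 at 3053 and 2874 CPM on chow, against 978 and 1028 CPM on HFD. The Cxcl1 level of chow replicate 9 rested on 58 UMIs in 5 of 26 cells, 36 of them in a single cell. That of chow 11, HFD 1 and HFD 3 rested on 17, 16 and 15 UMIs. Ccl3 stood at 683 and 973 CPM on chow, against 348 and 333 CPM on HFD. Ccl4, at 1459 and 1171 CPM on chow, against 956 and 1178 CPM on HFD, was the only one whose diets overlapped in CPM. Its share of cells with a UMI did not overlap when thinned to 1500 UMIs, at 54.0% and 45.9% on chow and 36.3% and 42.4% on HFD, but did when thinned to 2500 UMIs, at 52.9% and 72.1% on chow and 43.1% and 53.3% on HFD. In CPM the other 3 of the 4 lay lower on HFD, where 17.9% of 4457 genes did. The log2 fold change was -3.90 (SE 0.39) for Cxcl1, which became -2.89 without chow replicate 9, and -1.61 (SE 0.21) for Cxcl2. It was -1.32 (SE 0.26) for Ccl3 and -0.35 (SE 0.23) for Ccl4. These values depended on where the range was divided, and with median thresholds in place of Otsu's they were -3.51 for Ccl3 and -2.77 for Ccl4. With no filter on low counts the value for Ccl4 was -0.05. Monocyte markers of this range summed to 2022 and 3816 CPM on chow, against 5969 and 7275 CPM on HFD. Macrophage markers were at 2557 and 3345 against 1517 and 1837 CPM, and B and plasma cell markers at 335 and 411 against 163 and 97.3 CPM. Dendritic cell markers overlapped, at 93.7 and 274 against 477 and 187 CPM. The part of these markers in the chemokine levels was not tested.

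**Figure D3:**
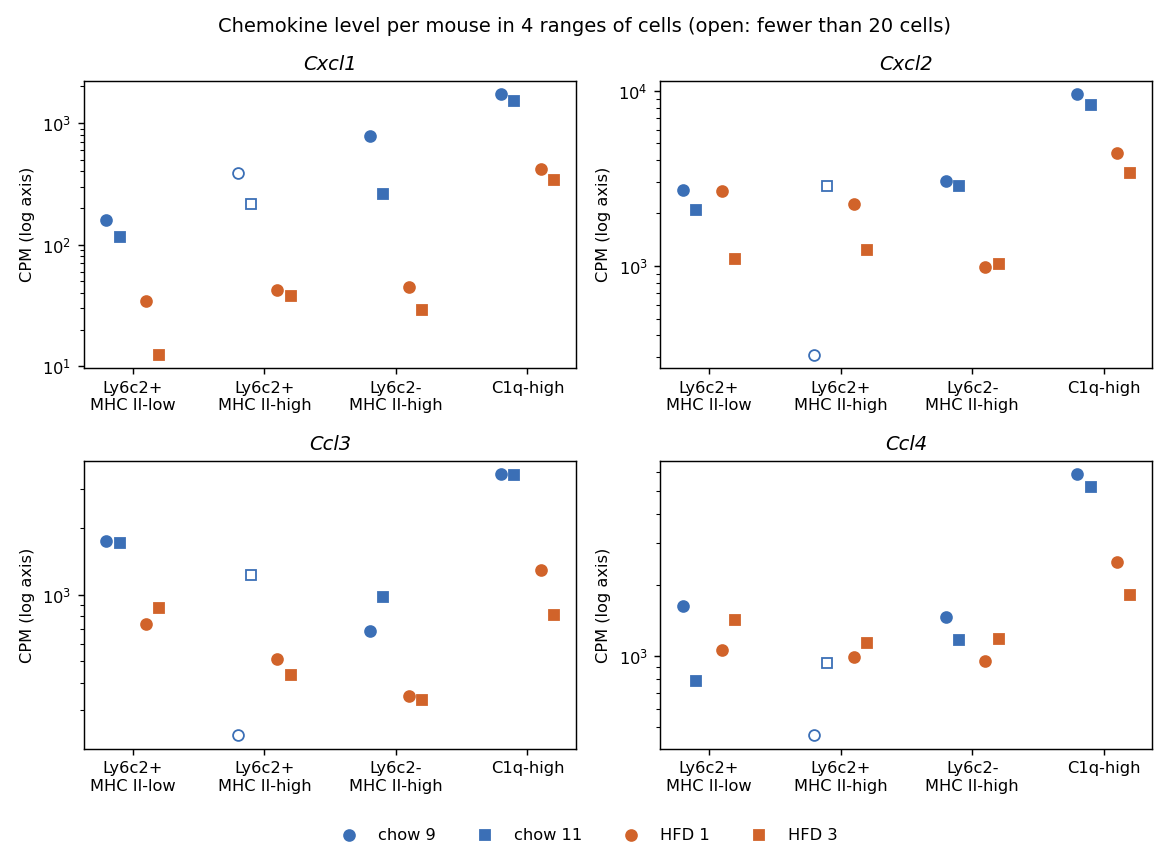
Each panel plots the CPM of one chemokine on a log axis in 4 ranges of cells, with 1 point per mouse and open points where a mouse had fewer than 20 cells. C1q-high cells hold the highest level in nearly every mouse, and of the 3 ranges compared between diets only there do both HFD mice lie below both chow mice for all 4 genes.

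C1q-high cells were a smaller share in HFD mice, so the levels were also computed at equal shares. When the ranges of each mouse were weighted by the mean chow shares of UMIs, the ratio of chow to HFD went from 7.53 to 4.35 for Cxcl1, from 3.04 to 2.27 for Cxcl2, from 4.06 to 3.26 for Ccl3 and from 3.17 to 2.49 for Ccl4. Each ratio was smaller at equal shares and remained above 2.

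Along the C1q level itself the distance between diets was not even. Cells with a C1q level of 6 to 7 held Ccl4 at 8114 and 4062 CPM on chow, against 798 and 1000 CPM on HFD, a ratio of chow to HFD of 6.77. At lower levels the ratio for Ccl4 was 1.25 at 2 to 4, where the diets overlapped, and 1.23 at 4 to 6. Above a level of 8, where chow mice had 99 and 284 cells and HFD mice 53 and 47, Ccl4 stood at 5091 and 4057 CPM on chow, against 4039 and 4363 CPM on HFD. The diets overlapped there, and the ratio was 1.09. Cxcl2 also overlapped above a level of 8, at 5180 and 5638 CPM on chow, against 3862 and 5183 CPM on HFD, after a ratio of 3.82 at 6 to 7. At 2 to 4 Cxcl1 stood at 766 and 157 CPM on chow, against 29.6 and 25.8 CPM on HFD. For Cxcl1 the ratio was 10.1 at 6 to 7, 2.86 at 7 to 8 and 1.71 above 8, where it stood at 839 and 1106 CPM on chow, against 455 and 684 CPM on HFD. Ccl3 lay in between, with ratios of 8.69 at 6 to 7 and 1.34 above 8, and its diets did not overlap in either. On chow all 4 genes were lower above 8 than at 7 to 8 in both mice, and on HFD Ccl4 was highest above 8 in both. The difference in how the diets compare along C1q was not tested.

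**Figure D4:**
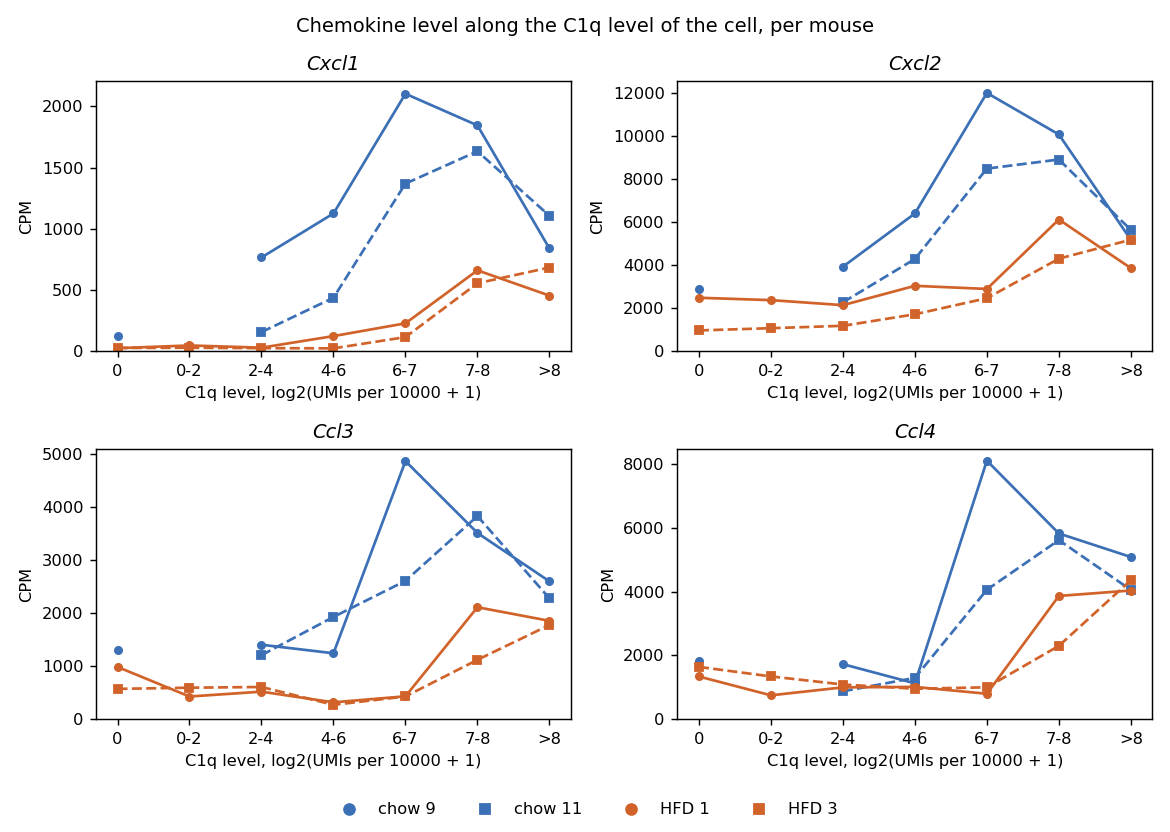
CPM of each chemokine is plotted against the C1q level of the cells, log2 of C1q UMIs per 10000 plus 1 in steps, with 1 line per mouse and steps under 20 cells left out. The chow lines (blue) lie above the HFD lines (orange) for all 4 genes at levels of 6 to 7 and 7 to 8, and above 8 the lines of Ccl4 meet, at 5091 and 4057 CPM on chow, against 4039 and 4363 CPM on HFD.

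Along MHC II the genes differed. Among C1q-high cells with an MHC II level above 10, Cxcl1 averaged 688 ± 83.4 CPM on HFD (SD, n = 2), against 280 ± 53.4 CPM at 9 to 10 and 123 ± 126 CPM at 8 to 9. On chow the means of Cxcl1 at the same steps were 1578 ± 87.5, 1647 ± 213 and 1617 ± 402 CPM. Cxcl2 likewise was higher at each step in both HFD mice, at 1765 to 3236, 2964 to 3903 and 5374 to 5605 CPM. The CC pair did not climb evenly in both HFD mice. In HFD replicate 1 Ccl4 went from 2488 CPM at 8 to 9 to 1303 CPM at 9 to 10 and 4380 CPM above 10. Ccl3 went from 960 to 516 and 2575 CPM in that mouse. In HFD replicate 3 Ccl4 went from 1619 to 1558 and 2596 CPM, whereas Ccl3 climbed at each step, from 393 to 697 and 1352 CPM. On chow Ccl3 was at 2513 and 2641 CPM at 8 to 9, at 3808 and 3587 CPM at 9 to 10 and at 3435 and 3615 CPM above 10. Along Ly6c2 the level of Cxcl1 went the other way. Cells without a Ly6c2 UMI held Cxcl1 at 1618 ± 147 CPM (chow) and 325 ± 6.77 CPM (HFD), against 241 ± 133 and 109 ± 4.16 CPM in cells with 2 to 4 UMIs. C1q, MHC II and Ly6c2 are not independent of each other in these cells, nor of depth.

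The UMIs of a chemokine were spread unevenly over cells. In C1q-high cells the top 10% of cells by Cxcl1 UMIs held 55.2% and 56.1% of them on chow but 81.2% and 91.3% on HFD. For Cxcl2 the top 10% held 36.7% and 37.9% on chow and 48.7% and 53.1% on HFD. A single C1q-high cell held up to 362 UMIs of Cxcl2, 321 of Ccl4, 180 of Ccl3 and 131 of Cxcl1, all of them on chow.

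In C1q-high cells the members of a pair went together from cell to cell more than the pairs did. Over the C1q-high cells of one mouse (458 to 1849 cells), Spearman's rho of counts per UMI was 0.44 to 0.58 for Cxcl1 with Cxcl2 and 0.47 to 0.69 for Ccl3 with Ccl4. Across pairs it was 0.08 to 0.36, the highest being Cxcl2 with Ccl3. In Ly6c2+ MHC II-low cells (66 to 325 per mouse) this did not hold in every mouse. There rho of the CXC pair was 0.34 in chow replicate 9 and -0.14 to 0.02 in the other mice, that of the CC pair 0.36, 0.14, 0.29 and 0.29 in chow 9, chow 11, HFD 1 and HFD 3, and that of Cxcl2 with Ccl3 0.37, 0.26, 0.14 and 0.14. Cells of a mouse share their library, and all counts of a cell share its depth. In C1q-high cells the correlation of each member with the cell's UMIs was -0.09 to 0.23. Across the 18 sums per mouse and range with at least 20 cells, Pearson's r of log2(CPM + 10) was 0.83 for Cxcl1 with Cxcl2 and 0.68 to 0.75 for every other pairing.

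Which other transcripts went with the chemokines was then asked within C1q-high cells, where each mouse supplies both classes. Cells with at least 1 UMI of Cxcl1 or Cxcl2 (721, 1786, 389 and 517 cells in chow 9, chow 11, HFD 1 and HFD 3) were compared with cells without (43, 63, 69 and 136 cells), with a term for the mouse and those 2 genes left out of the sums. At an FDR of 1% in the quasi-likelihood test of edgeR, 23 genes were higher (0.454% of 5063) and 10 lower (0.198%). Cells without the pair were shallower, with a median of 1893 to 2642 UMIs against 3928 to 4496. Among cells of 2000 to 6000 UMIs 15 genes passed, with 9 of the 15 named here (lost were Pgf, Ocstamp, Mmp12, Hilpda, St8sia4 and Zbp1). Leaving out 1 mouse left 12 to 19 genes, and of the 15 named genes Il10, H2-M2, Sgk1, Gadd45b, Plac8 and Hspa1a passed in all 4 of these fits. Ocstamp and Zbp1 passed in none. Pgf missed the threshold without chow replicate 9, chow replicate 11 or HFD replicate 3, St8sia4 without chow replicate 9 or either HFD mouse, and Tnf without chow replicate 11 or either HFD mouse. Mmp12, Chil3 and Gbp2 missed it without HFD replicate 3 and Hilpda without HFD replicate 1. Without the term for the mouse no gene passed in edgeR, with 223 at an unadjusted p under 0.05, while DESeq2 with the term called 33.

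A list of inhibitors joined genes that restrain inflammatory signalling with mRNA-decay factors such as Zfp36. Of its 12 tested genes, Il10, Nfkbia and Tnfaip3 rose with Cxcl1 or Cxcl2 and none fell. The list median was 0.45, against -0.01 over all genes. Il10, the anti-inflammatory cytokine, stood at 129, 280, 84.5 and 62.3 CPM in positive cells of chow 9, chow 11, HFD 1 and HFD 3 and at 7.93, 91.4, 9.87 and 5.21 CPM in negative cells, which rest on 1 to 13 UMIs. Positive cells were higher in 4 of 4 mice, with a log2 fold change of 2.50 (SE 0.31, adjusted p = 1.26e-05). H2-M2, a nonclassical MHC gene, followed a like pattern, at 667, 754, 330 and 181 CPM against 285, 218, 64.2 and 49.5 CPM (log2 fold change 1.76, SE 0.17, adjusted p = 3.26e-07). Tnf, the inflammatory cytokine, was at 277, 246, 164 and 123 CPM against 206, 84.4, 79.0 and 49.5 CPM (log2 fold change 1.05, adjusted p = 0.00416).

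The other 7 largest rises were Pgf (a growth factor for vessels, log2 fold change 1.85), Ocstamp (1.37), the elastase Mmp12 (1.34), Hilpda (a lipid-droplet protein, 1.31), the kinase Sgk1 (1.14), the sialyltransferase St8sia4 (1.10) and Gadd45b (0.92). In negative cells a mouse held only 3 to 7 UMIs of Pgf, 2 to 26 of Ocstamp, 7 to 32 of St8sia4 and 3 to 95 of Hilpda. Among the falls were Plac8 (log2 fold change -1.26) and Chil3 (-1.13), both markers of monocytes, the interferon-induced Gbp2 (-1.05) and Zbp1 (-0.92) and the heat-shock chaperone Hspa1a (-1.0), each lower in 4 of 4 mice. Negative cells of a mouse held as few as 4 UMIs of Chil3 or Gbp2 and 6 of Zbp1. Plac8 and Chil3 were also far higher in HFD than in chow cells of the range, Plac8 with 1607 and 1917 CPM against 48.1 and 125 CPM in positive cells. Ccl3 and Ccl4 did not pass (log2 fold changes 0.54 and 0.42, adjusted p = 0.163 and 0.237), and chow replicate 9 went against the other 3 mice. In that mouse Ccl3 stood at 3504 CPM with the CXC pair and at 4011 CPM without.

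For Ccl3 or Ccl4, positive cells (726, 1796, 364 and 494) and negative cells (38, 53, 94 and 159) differed in 21 higher genes (0.415% of 5063) and 5 lower (0.0988%). Again no gene passed without the term for the mouse, with 241 at an unadjusted p under 0.05, while DESeq2 with the term called 30. Without HFD replicate 1 only 2 genes passed, Cxcl1 and Cxcl2, and of the 15 genes named here 6 passed without chow replicate 11. Negative cells had a median of 1689 to 2882 UMIs against 3961 to 4417 in positive cells, and the part of depth in this result was not tested.

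The other pair was among the genes that rose. Cxcl2 stood at 9785, 8461, 4845 and 3797 CPM in CC-positive cells of chow 9, chow 11, HFD 1 and HFD 3 and at 5454, 3889, 2423 and 1560 CPM in CC-negative cells. Cxcl1 stood at 1774, 1544, 460 and 397 CPM against 772, 428, 211 and 71.1 CPM. Both were higher in 4 of 4 mice, by 1.14 (SE 0.10, adjusted p = 6e-08) and 1.70 (SE 0.17, adjusted p = 6.6e-07) on the log2 scale. The remaining large rises were Lilra5 (an activating immune receptor, 2.35, on 2 to 5 UMIs in negative cells), the collagenase Mmp13 (1.51), Zmynd15 (1.45), Il10 (1.45), Tnf (1.36), H2-M2 (1.33), Cd72 (1.27) and Ptgs1 (a cyclooxygenase, 1.18). Falls were Hbegf (a growth factor, -1.57), S100a6 (-1.06), Ahnak (-1.05), Capg (-0.85) and Crip1 (-0.60). Negative cells of a mouse also held only 5 to 27 UMIs of Cd72, 4 to 19 of Il10 and 7 to 38 of Hbegf. Tnf, Il10 and H2-M2 were among the 10 largest rises with either pair when cells were divided by presence of a UMI.

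**Figure D5:**
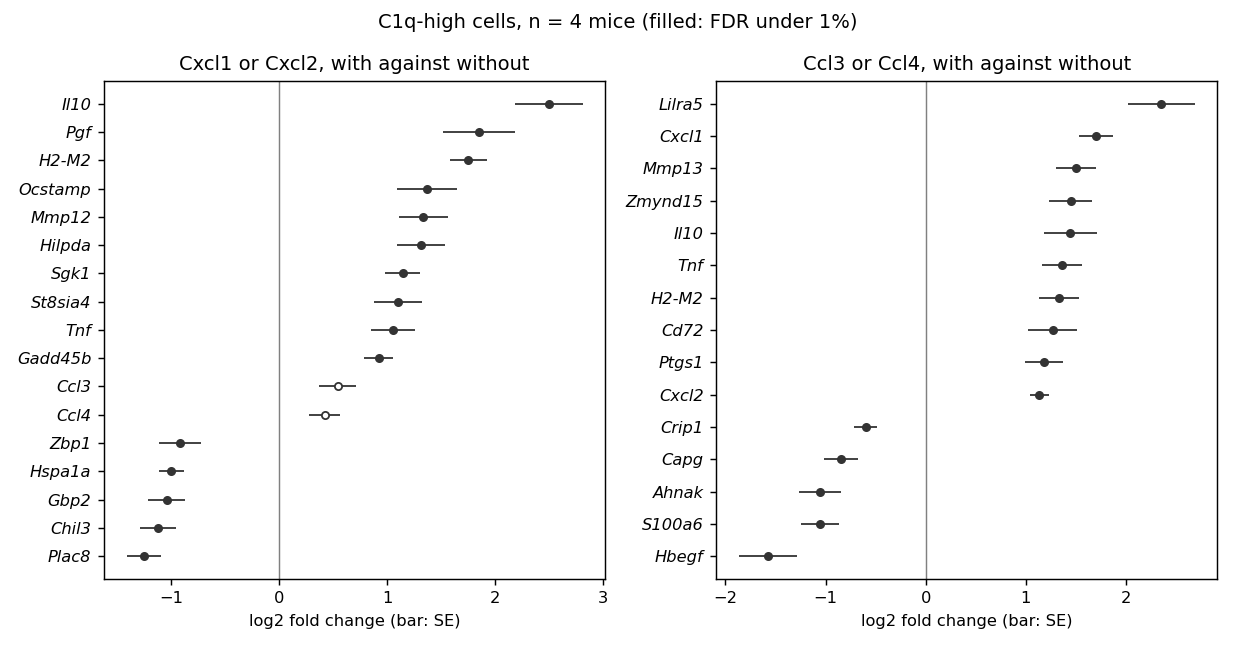
Log2 fold changes (bars, SE) between C1q-high cells with and without UMIs of Cxcl1 or Cxcl2 (left) and of Ccl3 or Ccl4 (right) are shown for the named genes over 4 mice, filled where the adjusted p was under 1%. Il10 leads the left panel at 2.50 and Lilra5 the right panel at 2.35, and Ccl3 and Ccl4 are the open points of the left panel at 0.54 and 0.42.

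Presence or absence divides cells unevenly, since few C1q-high cells lack a pair. As an alternative chosen after seeing the data, the C1q-high cells of each mouse were divided into 3 equal parts by the pair's share of UMIs, and the top part was compared with the bottom part. For Cxcl1 and Cxcl2, 138 genes were higher (2.74% of 5029), and for Ccl3 and Ccl4, 50 (1% of 4998). Of the 12 tested genes of the inhibitor list, 9 rose with the CXC pair and 3 with the CC pair. For CXC, Tnfaip3 was at 1.61 (SE 0.11) and Nfkbia at 1.36 (SE 0.10) on the log2 scale. The medians of that list were 0.74 and 0.47, against -0.02 and -0.01 over all genes. Of 8 tested co-induced inflammatory genes, 7 rose with CXC (Tnf, Il1b, Ptgs2, Nlrp3, Nfkbiz, Cd83 and Icam1) and 2 with CC (Tnf and Nfkbiz). Of the immediate-early genes, which encode transcription factors such as Fos and Jun, 8 of 14 rose with CXC and 7 of 13 with CC. Fos was 0.95 and Jun 1.39 higher with CC, with adjusted p of 0.00287 for each, and 0.42 and 0.28 higher with CXC, with adjusted p of 0.0101 and 0.304. Hspa1a was lower with CXC, along with Hspa1b and Dnajb1, and higher with CC. Of the 15 genes named for each pair from cells with and without UMIs, 13 passed here for CXC (all but Ocstamp and Zbp1). For CC only 4 did, namely Zmynd15, Tnf, Cd72 and Cxcl2, while Il10, H2-M2, Cxcl1, Lilra5, Mmp13, Ptgs1 and all 5 falls missed the threshold. In this comparison Ccl3 and Ccl4 did rise with the CXC pair, by 1.73 (SE 0.21) and 1.55 (SE 0.18). When cells were divided by presence of a UMI, the lists had counted otherwise. There 1 of 8 co-induced genes rose with CXC (Tnf) and 2 with CC (Tnf and Cd83). Immediate-early genes counted 0 of 14 with CXC and 1 of 14 with CC (Atf3), and inhibitors 3 and 1 of 12. In Ly6c2+ MHC II-low cells divided into parts in the same way, 20 of 4517 genes were higher with CXC and 12 of 4464 with CC. Immediate-early genes counted 0 and 4 of 14 there, inhibitors 2 and 2 of 12, and co-induced genes 4 and 1 of 9. Each part held 22 cells in either chow mouse. Whether the pairs differ from each other in these genes was not tested.

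CCR1, a receptor of CCL3, was next set beside the chemokines. Ccr1 stood at 402 and 450 CPM on chow, against 535 and 479 CPM on HFD over all cells. It did not pass edgeR's test, with a log2 fold change of 0.03 (SE 0.12, adjusted p = 0.876). At the monocyte end Ccr1 stood at 244 and 294 CPM on chow, against 619 and 527 CPM on HFD, which missed the threshold (log2 fold change 0.98, SE 0.21, adjusted p = 0.0244). Cxcr1 and Cxcr2 were not analysed here.

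The diet comparison called 380 of 4948 genes higher (7.68%) and 423 lower (8.55%) over all cells at an FDR of 1%, against which lists of genes around the chemokines were counted. Of the 3 other chemokine ligands tested, 1 rose and 1 fell. Ccl5, a T cell attractant, stood at 21.4 and 29.9 CPM on chow, against 434 and 545 CPM on HFD. It rose by 4.0 on the log2 scale (SE 0.21, adjusted p = 0.00015), while Ccl3 and Ccl4 were lower. Ccl7, a monocyte attractant, stood at 481 and 674 CPM on chow, against 178 and 259 CPM on HFD (log2 fold change -1.63, SE 0.23, adjusted p = 0.00313). The atypical receptor gene Ccrl2, from 1053 and 1151 CPM to 847 and 852 CPM, fell as well (log2 fold change -0.60, adjusted p = 0.00759).

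Genes upstream of the chemokines were counted next. None of 7 tested sensors and adaptors such as Tlr2, Ly96 and Cd14 passed over all cells (median log2 fold change 0.22, against -0.01 over all genes), and of 7 NF-κB subunits and kinases only Ikbkb did, which rose by 0.76 on the log2 scale (SE 0.12, adjusted p = 0.00414). Of 12 inhibitors, 6 fell (Tnfaip3, Zfp36, Zc3h12a, Socs3, Dusp1 and Il10) and none rose, with a median of -0.77. Il10 stood at 118 and 261 CPM on chow, against 39.7 and 28.5 CPM on HFD, a log2 fold change of -2.72 (SE 0.39, adjusted p = 0.0035). Of 8 co-induced inflammatory genes, Tnf, Cd83 and Icam1 fell (median -0.84). Tnf went from 258 and 232 CPM to 124 and 90.6 CPM, and Cd83, a marker of activation, from 3262 and 3251 CPM to 1091 and 1056 CPM.

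Immediate-early genes fell alongside. Of 14 tested, 7 were lower (Fos, Fosb, Jun, Junb, Atf3, Btg2 and Klf6) with a list median of -0.78. Atf3, a stress-induced transcription factor, stood at 1885 and 1956 CPM on chow, against 720 and 579 CPM on HFD (log2 fold change -1.78, SE 0.14, adjusted p = 0.000483). Jun stood at 1571 and 737 CPM on chow, against 315 and 275 CPM on HFD (log2 fold change -2.18), and Fosb fell by 1.44 on the log2 scale. Of 9 heat-shock genes, Hspa1a, Hsp90aa1, Dnajb1 and Dnaja1 fell (median -0.88), Hspa1a from 1413 and 1353 CPM to 611 and 586 CPM. Summed over their list, immediate-early genes made up 22038 and 22153 CPM on chow, against 12889 and 12388 CPM on HFD, and heat-shock genes 4365 and 6138 against 3507 and 3678 CPM. Genes of both kinds also respond to the handling of tissue, and their part in the chemokine levels was not tested. At the monocyte end, where Cxcl2 and Ccl4 overlapped between diets, the immediate-early sum was 18623 and 16023 CPM on chow, against 13853 and 15254 CPM on HFD.

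Without HFD replicate 1 or HFD replicate 3 the calls over all cells numbered 267 and 150, and Il10, Jun and Ccl7 missed the threshold in both cases, as did Fosb and Tnf without HFD replicate 3. With library sizes in place of TMM, the median log2 fold change over all genes went from -0.01 to 0.21, 676 were called higher and 304 lower, and the 4 chemokines were still lower on HFD.

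In C1q-high cells, 271 of 5065 genes were higher (5.35%) and 260 lower (5.13%), or 502 and 246 with library sizes alone. Here 8 of 14 immediate-early genes fell, 4 of 12 inhibitors (Zfp36, Zc3h12a, Socs3 and Dusp1) and 3 of 9 heat-shock genes, with list medians of -0.92, -0.78 and -0.84 against -0.02 over all genes. Atf3 stood at 1965 and 2011 CPM on chow, against 658 and 467 CPM on HFD, and Nr4a1, another immediate-early factor, at 544 and 528 against 290 and 229 CPM (log2 fold change -1.19, adjusted p = 0.00179). Of 8 co-induced genes Tnf and Cd83 fell and Ptgs2 rose. Ccl5 rose here too, from 23.9 and 30.8 CPM to 521 and 712 CPM (log2 fold change 4.32, SE 0.21, adjusted p = 3.13e-05). This range depended most on single mice, since 32 genes were called without HFD replicate 3 and 113 without HFD replicate 1. Of the 10 genes named by the rule in this range (Ccl5, Jun, Atf3, Cd83, Hspa1a, Dnajb1, Nr4a1, Fosb, Fos and Tnf), only Ccl5 passed without HFD replicate 3, and only Ccl5, Atf3, Cd83 and Hspa1a without HFD replicate 1. With median thresholds Jun, Nr4a1, Fosb, Fos and Tnf missed the threshold of the test.

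The C1q-low ranges gave few calls. In Ly6c2+ MHC II-low cells 27 of 4570 genes were higher (0.591%) and 10 lower (0.219%), and of the 65 list genes tested only Ccl9 passed. Ccl9, a ligand of CCR1, stood at 1822 and 1866 CPM on chow, against 1051 and 975 CPM on HFD (log2 fold change -0.98, SE 0.17, adjusted p = 0.00522), and it missed the threshold without either HFD mouse. In Ly6c2- MHC II-high cells 39 of 4457 genes were higher (0.875%) and 49 lower (1.1%). Ccl9 fell there from 977 and 1232 CPM to 286 and 337 CPM (log2 fold change -1.87, SE 0.25, adjusted p = 1.94e-07), as did Jun and Cd83, by 1.47 and 1.05 on the log2 scale. Jun missed the threshold without chow replicate 9 or HFD replicate 3, and Cd83 without either HFD mouse. Both also missed it in DESeq2, Cd83 with no filter on low counts and Jun with Ly6c2 taken as positive at 2 UMIs. Ccl5 had no UMI in either chow mouse of this range and stood at 1200 and 473 CPM on HFD. It passed the filter on low counts through the HFD mice alone, and without either of them it was not tested. Its level here is therefore given as a description.

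The strongest producers were looked at for depth and for markers of other cells. The top 10% of C1q-high cells by the summed share of the 4 chemokines had a median of 4141 and 4002 UMIs on chow and 3102 and 4238 on HFD, against 4218, 3867, 3919 and 4101 in the other cells, so that producers were shallower in HFD replicate 1. None of these producers was marked as a doublet. On chow they held less RNA of B and plasma cells, at 266 and 449 CPM, than other C1q-high cells, at 2928 and 3427 CPM, while on HFD the sums were 172 and 168 against 165 and 121 CPM. Macrophage markers, among them the C1q genes that define the range, summed to 18923 and 20908 CPM in the chow producers. In the other chow cells of the range they summed to 22378 and 23205 CPM. On HFD they summed to 22939 and 21885 CPM in producers but to 16361 and 15087 CPM in the others. Monocyte markers were lower in producers of all 4 mice, at 116, 239, 987 and 1904 CPM in chow 9, chow 11, HFD 1 and HFD 3, against 360, 550, 2958 and 3951 CPM. The part of other cells' RNA in the chemokine levels was not tested.

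Across the 18 sums, the genes most like Cxcl1 by Pearson's r of log2(CPM + 10) were Rab7b (0.93), Pf4 (0.91), Gdf15 (0.91), Abhd12 (0.90) and Ms4a7 (0.89). Those most like Cxcl2 were Tnfaip3 (0.91), the NF-κB inhibitor also known as A20, then Man1a, Apoe, Dhrs3 and Sqstm1 (each 0.84). For Ccl3 they were Itm2b (0.89), the fractalkine receptor gene Cx3cr1 (0.89), Fos (0.88), Serinc3 (0.87) and Trf (0.86), and for Ccl4 Pmp22 (0.91), Mmp2 (0.90), Adamdec1 (0.89), Kcnk13 (0.89) and Ctsb (0.88). No gene stood in more than one of these 4 lists. With Spearman's rho 3, 2, 4 and 1 of the 5 genes remained for Cxcl1, Cxcl2, Ccl3 and Ccl4, and with a pseudocount of 1 in place of 10 it was 2, 4, 5 and 3. Sums of a mouse share its library, and ranges differ in many genes at once, so these r describe likeness and carry no p.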

How the data were processed

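Against the mouse transcriptome of Ensembl release 97, the authors pseudo-aligned reads by means of kallisto 0.46.0, then counted them in bustools (0.39.2), filtered cells by depth, genes and mitochondrial share, removed rare genes and cells of other types, and deposited raw UMI counts, which were used as deposited. Symbols of 11819 of 11820 genes came from GENCODE M21. Members and gene lists were chosen with earlier results of these data known. Counts were summed per mouse (n = 2 per diet, so that no exact test can give p under 0.33). Genes were fitted if CPM was above 1 in 2 or more sums and 5% or more of the cells had a UMI. Diet comparisons had 4 sums, and comparisons between classes or equal parts of cells had 2 sums per mouse. Fits used edgeR (version 4.0.16), TMM and the quasi-likelihood test, called at a Benjamini-Hochberg FDR of 1%. Each range needed at least 20 cells per mouse, or 20 of each class in every mouse. Alternatives used DESeq2 (version 1.42.0). Scripts were tested on simulated data. Thinning used the expected share at 1500 UMIs. The list genes named were those past the FDR with both HFD mice beyond both chow mice, the largest 10 per comparison. For positive against negative cells they were the 10 largest rises and 5 largest falls with one sign in all 4 mice. A few other called genes are named to spell out counts. They were chosen after their values were seen. Of 31-base words in Cxcl2 transcripts, 7.59% also occur in Cxcl3 (10.9% within the last 500 bases), so that reads of Cxcl2 could in part come from Cxcl3, and none of the words of Cxcl1, Ccl3 and Ccl4 occur in another gene. P-values of the diet comparisons rest on the spread between these mice only, with dispersion shared across genes. Those between classes of cells rest on how the difference varied over these mice, with dispersion shared likewise. Binomial intervals measure counting error only. One gene of the lists is not reported here.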

Additional observations from a re-analysis of the deposited data

Results flagged for a closer look

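A few list genes, none of them a chemokine, lay apart between diets in opposite directions in different ranges of cells. The difference between ranges was not tested, and most of these changes missed the threshold on their own. Socs3, a feedback inhibitor of cytokine signalling, had a log2 fold change of 0.85 at the Ly6c2+ MHC II-low end (454 and 413 CPM on chow, 886 and 804 CPM on HFD) and of -0.86 in C1q-high cells (1053 and 1031 CPM on chow, 673 and 593 CPM on HFD). The latter passed edgeR's test at an adjusted p of 0.00307 and the former did not, at 0.0281. Icam1, an adhesion molecule, had values of 0.15 (SE 0.36) at the Ly6c2+ MHC II-low end and -1.07 (SE 0.24) in C1q-high cells. Jund, an AP-1 subunit, had 0.53 (SE 0.51) at that end, -1.27 (SE 0.82) in Ly6c2- MHC II-high cells and -0.68 (SE 0.24) in C1q-high cells. The receptor gene Tlr2 had -0.53 (SE 0.20), -0.60 (SE 0.30) and 0.12 (SE 0.14) in the same order of ranges. The kinase gene Irak1 had 0.46 (SE 0.59), -0.62 (SE 0.68) and 0.55 (SE 0.23).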

How the results depend on the processing

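Limits are 2 mice per diet, 1 library per mouse, and ranges that a threshold imposes on a continuous level. No paired analysis was possible between diets because replicates 9 and 11 and replicates 1 and 3 share no number. All 4 chemokines were lower on HFD over all cells under every alternative run. With library sizes alone the log2 fold changes were -2.91 for Cxcl1, -2.02 for Ccl3 and -1.66 for Ccl4, and leaving out each mouse gave -3.29 to -2.98 for Cxcl1, -2.14 to -1.56 for Cxcl2, -2.48 to -2.03 for Ccl3 and -1.98 to -1.79 for Ccl4, with the low ends of Cxcl2 and Ccl3 without HFD replicate 1. In C1q-high cells, over all alternatives, the range was -2.44 to -1.50 for Cxcl1, -1.58 to -0.89 for Cxcl2, -2.28 to -1.15 for Ccl3 and -1.78 to -0.81 for Ccl4. In Ly6c2- MHC II-high cells it was -4.46 to -2.89, -2.08 to -1.28, -3.51 to -1.02 and -2.77 to -0.05, and in Ly6c2+ MHC II-low cells -3.55 to -1.80, -1.25 to 0.04, -1.55 to -1.04 and -0.56 to 0.54, in the same order.

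Counts of called genes moved more, and for each the cause was not tested. Over all cells 803 genes were called in the edgeR quasi-likelihood test, 1306 in its likelihood-ratio test, 1218 with no filter on low counts and 150 to 920 without one mouse. In Ly6c2+ MHC II-low cells 37 became 101 and 123 under the same changes of test and filter, 62 with library sizes alone, 66 with median thresholds and 44 to 120 without one mouse. In Ly6c2- MHC II-high cells 88 became 37 with DESeq2, 137 with no filter, 232 with median thresholds, 33 with Ly6c2 taken as positive at 2 UMIs and 36 to 117 without one mouse. In C1q-high cells 531 became 926 in the likelihood-ratio test, 912 with no filter, 93 with median thresholds and 32 to 764 without one mouse.

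For cells with and without Cxcl1 or Cxcl2, 33 genes became 91 with no filter, 15 in cells of 2000 to 6000 UMIs, 159 for the top against the bottom of 3 equal parts (chosen after seeing the data) and 12 to 19 without one mouse. For Ccl3 or Ccl4, 26 became 78 with no filter, 43 with positive cells at 2 UMIs, 62 for the same 3 parts and 2 to 26 without one mouse. Without the replicate block for the mouse, edgeR called 0 genes for either pair, with 223 and 241 at an unadjusted p under 0.05. A depth window for Ccl3 or Ccl4 was not run, because too few negative cells were left in chow replicate 11.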
